A study of Mus musculus with 35 samples.

Results

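Nodal, Lefty1, Lefty2, Tdgf1, Bmp4, Id1, Id2, Id3 and Smad7 are genes of the Nodal and BMP signalling pathways, and their levels were followed in induced pluripotent stem (iPS) clones of the mouse. The 9 genes were taken by name from the array annotation, which names 27962 genes, and were read by 11 probes, 2 each for Id1 and Id2 and 1 for every other gene. The clones came from 6-week-old mice that carry a Nanog-GFP-Puro reporter, in which GFP and puromycin resistance are under the control of Nanog. The cells reprogrammed with pMX retroviruses were bone marrow PαS cells (mesenchymal stem cells, sorted as CD45-Ter119-PDGFRα+Sca-1+), bone marrow OP cells (osteo-progenitors, sorted as CD45-Ter119-PDGFRα-Sca-1-) and tail tip fibroblasts (TTF). The 4F-clones received Oct3/4, Sox2, Klf4 and c-Myc, and the 3F-clones received Oct3/4, Sox2 and Klf4 without c-Myc. DsRed virus was added in all transductions, the clones were picked as GFP+/DsRed-, and they were grown on mitomycin-treated SNL feeder cells. Each of the 6 groups (4F- and 3F-PαS-iPS, 4F- and 3F-OP-iPS, 4F- and 3F-TTF-iPS) held 5 clones with 1 array each. The ES cell lines EB-3 and RF8 had an array each, as did the unreprogrammed cells of each source, which makes 35 arrays in all. Clones of a group are separate colonies, and whether they share an infected cell or an animal is not given, so that p values measure the spread between these clones.

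Nodal is a ligand of the TGF-β family that signals through activin receptors and Smad2/3, and needs the co-receptor Cripto, the product of Tdgf1. Lefty1 and Lefty2 are secreted inhibitors of Nodal that are themselves induced by Nodal signalling, and in mouse ES cells this loop is active without added ligand. BMP4 signals through Smad1/5 and switches on Id genes, whose proteins bind and block basic helix-loop-helix factors, and in mouse ES cells BMP and LIF together keep the cells undifferentiated. Smad7 is an inhibitory Smad that is induced by both branches and damps both.

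Levels are log2 values of the background-subtracted spot intensity, set so that the 75th percentile of each array is 0. A level can be compared between arrays for the same probe, but not between probes. On clone arrays 56.6% to 65.7% of probes were well above background, against 64.3% and 71.1% for ES cells and 63% to 64.3% for primary cells. A gene is said to have changed when it differed at least 2-fold with an adjusted p (Benjamini-Hochberg, over 27623 probes) under 0.05 in limma. All 30 clones were scanned in 1 session on 8 slides. The RF8 array was scanned in another session, and the EB-3 array shared a slide with the 3 primary cells in yet another, so in the comparison with ES cells the kind of cell and the session cannot be told apart. A set of 4 clones stands apart in Nanog, the pluripotency factor that drives the reporter: its level was -6.13, -3.30 and -8.24 in 4F-OP-iPS #1, #2 and #3 and -6.06 in 4F-TTF-iPS #1, against -0.89 to 3.68 in the other 26 clones, and group differences and relations that rest on these clones are given with and without them. Nanog was not above background in 3 of the 4.

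The probes for Id2 and Id3 are shown because these genes carry the differences between 3F- and 4F-clones below, and because the genomic span of each is longer than its 60 bases, so that they read spliced RNA. The Id2 probe lies at chr12:22931820-22932167 and the Id3 probe at chr4:135522597-135522771, on mouse build mm7 as given in the array annotation. Capitals mark the stop codon at the end of the Id2 probe.
Id2 probe: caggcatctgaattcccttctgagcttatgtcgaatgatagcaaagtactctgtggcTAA
Id3 probe: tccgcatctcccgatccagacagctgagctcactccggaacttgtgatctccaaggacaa
The other Id2 probe, which gave the higher signal and the main Id2 values, lies at chr12:22930541-22930600. The 2 Id1 probes lie at chr2:152478157-152478216 and chr2:152478167-152478226 and share a run of 50 bases, so they are nearly the same measurement. The Lefty1 probe at chr1:180917655-180917714 and the Lefty2 probe at chr1:180877495-180877554 share no run over 10 bases, and neither did any other pair of probes of different members. The Nodal probe lies at chr10:60942629-60942688, the Tdgf1 probe at chr9:110638452-110638511 and the Bmp4 probe at chr14:41704207-41704266.

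Id2 and Id3 moved together over the clones (below), and the 250 bases before their start sites are shown from RefSeq (GRCm38.p6), which has such an entry for 5 of the 9 genes. The Id2 stretch is chr12:25096093-25096342 on the minus strand and the Id3 stretch is chr4:136143572-136143821 on the plus strand. Capitals mark GGCGCC, a GC-rich word of the kind bound by BMP-activated Smads in Id promoters.
Id2 promoter: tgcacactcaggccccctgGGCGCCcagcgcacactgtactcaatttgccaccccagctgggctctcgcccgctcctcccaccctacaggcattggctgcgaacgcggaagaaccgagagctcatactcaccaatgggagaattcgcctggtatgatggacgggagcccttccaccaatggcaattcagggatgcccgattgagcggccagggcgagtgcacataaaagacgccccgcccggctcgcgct
Id3 promoter: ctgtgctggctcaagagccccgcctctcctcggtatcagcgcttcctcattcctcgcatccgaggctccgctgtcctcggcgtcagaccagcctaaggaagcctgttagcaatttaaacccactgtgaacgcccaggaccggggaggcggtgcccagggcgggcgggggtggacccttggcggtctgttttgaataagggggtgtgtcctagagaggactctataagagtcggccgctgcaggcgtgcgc
GGCGCC, which reads the same on both strands, is present in the Id2 stretch, with its first base 231 bases before the start, and has no match in those of Id3, Nodal, Tdgf1 and Bmp4. It is found in 9.59% of 32851 promoters of the same length. GTCT, the core of the Smad3 and Smad4 binding site, was searched on both strands together with its complement AGAC and is found in 82.9% of promoters. It has 3 matches in the Tdgf1 stretch, 2 in Id3, 1 in Id2 and 1 in Bmp4, and none in Nodal. CAGACA, a longer form of that site which can overlap GTCT when read as TGTCTG, is found in 17.1% of promoters and in none of these 5. A match describes the sequence only.

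The Nodal side of the set lay below ES cells in the clones, while the Id genes did not. In the comparison of the 30 clones with the 2 ES arrays, 5 of the 9 genes changed, and all 5 were lower: Nodal, Lefty1, Lefty2, Tdgf1 and Smad7. Of all 27623 probes 36.2% changed in this comparison, and 19.0% were lower. The median difference was -1.73 for the 9 genes and -0.11 for all probes.

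Lefty1 differed most. Its level was 4.78 in EB-3 and 4.83 in RF8, and ran from -2.41 to 2.58 over the 30 clones with a median of -0.07. No clone reached either ES array, and the mean difference was -4.99 ± 0.97 (SE; adjusted p = 0.000115), which is 31.7-fold. Lefty2, its neighbour on chromosome 1, was at 0.67 in EB-3 and 2.36 in RF8 and ran from -7.15 to 1.23 over the clones. It was lower than both ES arrays in 27 of the 30 clones and not above background in 4 of them, with a difference of -3.97 ± 1.52 (adjusted p = 0.0298). These are 2 inhibitors of the same ligand, and the Lefty2 call was lost with either ES array alone.

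Nodal itself was at 4.18 in EB-3 and 2.10 in RF8, and ran from -3.77 to 2.64 over the clones with a median of 1.18. It was below both ES arrays in 26 of 30 clones, and the difference was -2.31 ± 0.92 (adjusted p = 0.0362). Because EB-3 was 2.08 above RF8, the size depends on the ES array: the difference was -3.35 with EB-3 alone and -1.28, no longer changed, with RF8 alone. Between these arrays the line and the scan session cannot be told apart. Tdgf1, the co-receptor, was at 4.15 and 3.04 in the ES arrays and from -3.50 to 2.75 in the clones, of which all 30 were below both. Its difference was -3.35 ± 0.91 (adjusted p = 0.00329), and it was lost with RF8 alone, at -2.79. Smad7 was at 1.11 and 0.41 in ES cells and from -2.35 to 0.36 in the clones, again with all 30 below, and the difference was -1.73 ± 0.38 (adjusted p = 0.000451). The share of all probes with every clone below both ES arrays is not given here, and 57.8% of all probes had an unadjusted p under 0.05 by limma. Lefty1 and Smad7 stayed changed with either ES array left out, and are thus the 2 genes whose call does not turn on the ES array used.

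Bmp4 was at 1.85 in EB-3, above all clones (-3.35 to 0.88), but at -0.51 in RF8, above 18 of 30, and its difference of -1.49 ± 0.73 did not pass (adjusted p = 0.0874). Among its targets, Id1 was at 1.56 and 2.15 in ES cells and from 1.38 to 3.75 in clones (difference 0.54 ± 0.39, adjusted p = 0.249). Id3 was at 0.96 and 1.44 in ES cells and from 0.14 to 3.74 in clones, above both ES arrays in 22 of 30 clones, with a difference of 1.07 ± 0.54 (adjusted p = 0.0964). Without the 4 clones low in Nanog Id3 was called higher as well, which gave 6 changed genes, and the share of all probes changed there is not given here. The Id2 probes disagree: the main one gave 0.11 ± 0.37 (adjusted p = 0.82) and the spliced one 1.04 ± 0.37 (adjusted p = 0.0197), so no direction is given for Id2.

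**Figure D1:**
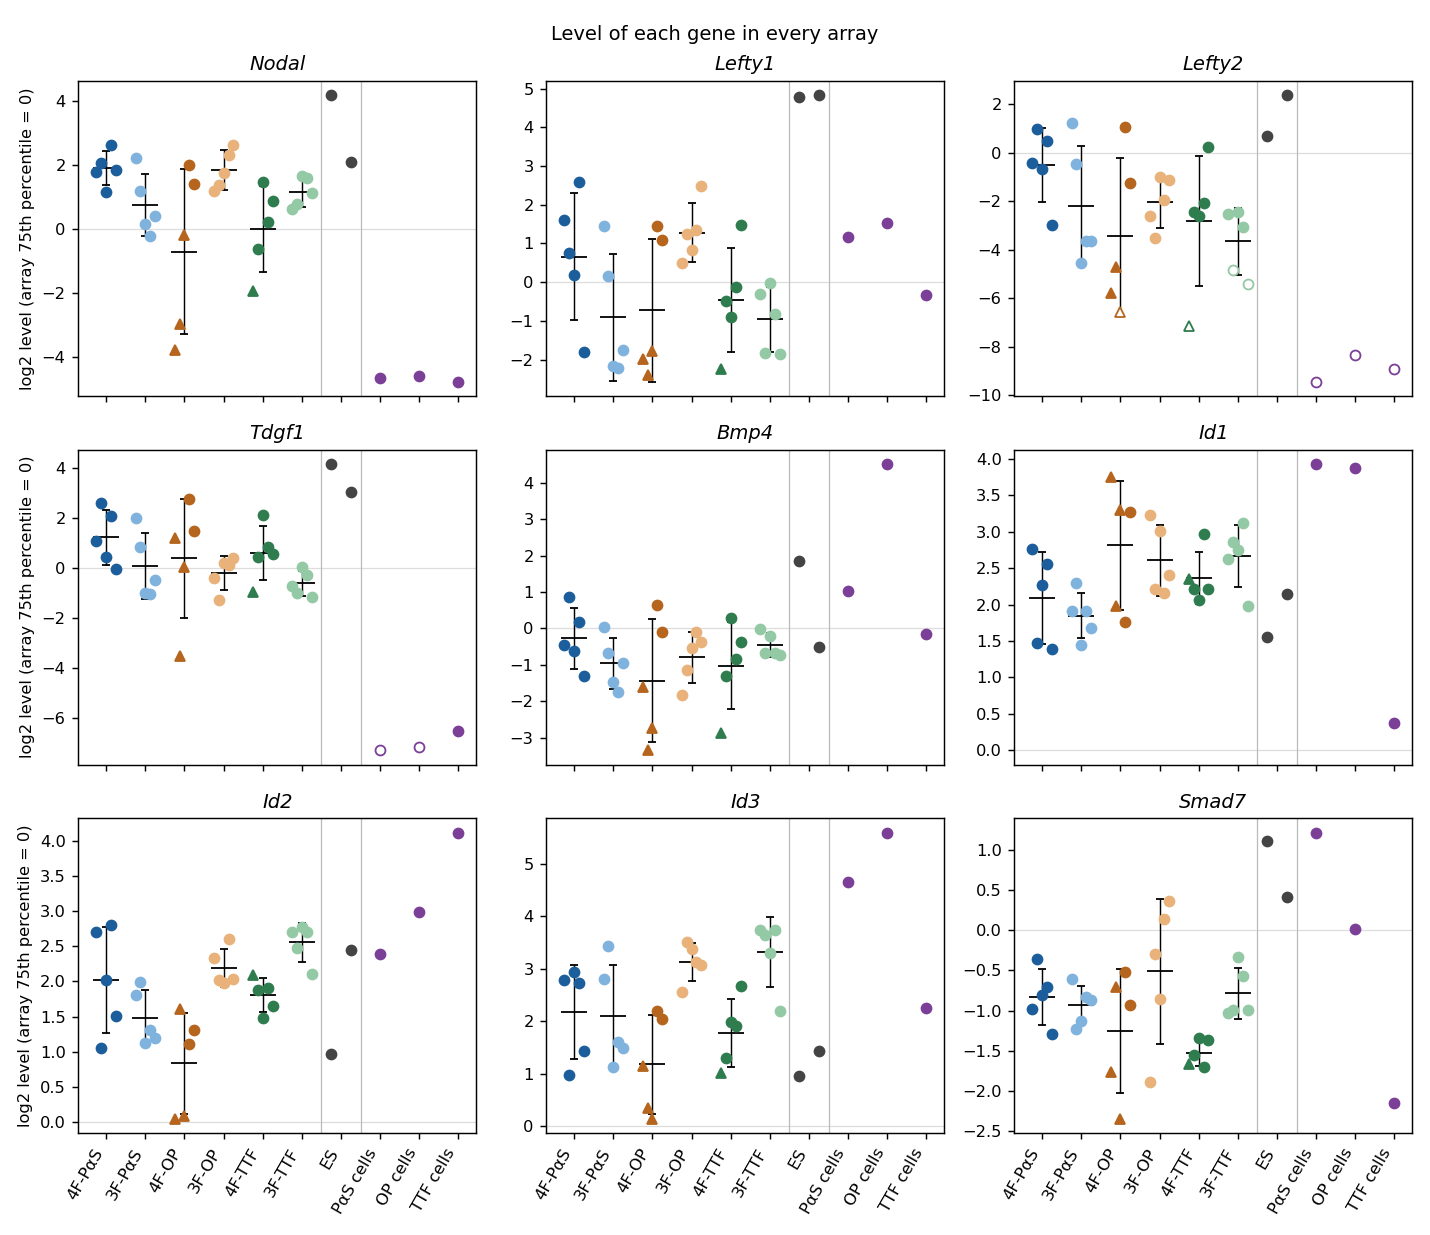
Level of each of the 9 genes in every array, as log2 of the intensity with the 75th percentile of the array at 0; the y axes differ between panels. Each point is an array, bars are the mean ± SD of the 5 clones of a group, triangles are the 4 clones low in Nanog, and open symbols are not well above background. All 30 clones lie below both ES arrays for Lefty1, Tdgf1 and Smad7, and Lefty2 is open in all 3 primary cells.

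Markers of other cells moved in the same comparison. Of 19 fibroblast markers tested 14 were higher in the clones, with a median difference of 3.50, and of 10 primitive endoderm markers all 10 were, with a median of 4.72. Their summed levels, on the linear scale with the 75th percentile at 1, were 153 to 796 in clones against 40.0 and 240.1 in ES cells for the 20 fibroblast markers on the array, and 20.8 to 248.3 against 4.40 and 6.25 for primitive endoderm. Of 8 trophoblast markers 6 were higher, of 7 endothelial markers 2, and of 4 blood markers 2 (the blood marker Ptprc was on no clone or ES array above background), while 2 of 7 primitive streak markers were lower. Of 9 ES cell markers 3 were lower (Eras, Tdh and Zfp42), and their sum was 2.31 to 210.4 in clones against 238.2 and 530.3 in ES cells. The clones were grown on SNL feeders and total RNA was hybridized, so fewer cells of a type and less RNA per cell cannot be told apart, and the part of these other cells in the differences was not tested.

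Other genes of both pathways were taken from lists of ligands, receptors, Smads, inhibitors, targets and convertases, of which 67 of 68 names are on the array and 61 were tested. Against ES cells 25 were higher and 7 lower, with a median of 0.53, in a comparison where 17.2% of all probes were higher and 19.0% lower. The counts include Dlx3, higher but above background in neither ES array, and Bmpr1b, lower but above background in only 1 of 30 clones. Against RF8 alone, with dim values as measured, 18 of the 25 were at least 2-fold higher and 7 were not, while all 7 lower ones were at least 2-fold lower. Among the ligands, Inhba, a subunit of activin, differed by 5.81 ± 1.00 (adjusted p = 2.96e-05), and Bmp2 by 5.01 ± 0.75 (adjusted p = 4.26e-06). Both were above background in all clones but in only 1 of the 2 ES arrays, so that against their mean Inhba was at least 25.3-fold and Bmp2 at least 18.1-fold higher. Against RF8 alone, where both were measured, the means of the clones were 2.71-fold higher for Inhba and 11.2-fold for Bmp2. Gdf3, a ligand that is itself typical of ES cells, was lower by -2.83 ± 1.07 (adjusted p = 0.0282), and was thus the ligand that moved with Nodal. Of the 7 BMP ligands tested 4 were higher (Bmp2, Bmp6, Bmp7 and Gdf9) and none lower.

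Of the 14 inhibitors tested besides the Lefty genes and Smad7, 7 were higher and 1 lower. Fst, Fstl3, Grem1 and Nog, secreted proteins that bind ligands of the family, were among the 7. Against RF8 alone Fst was 6.06-fold, Fstl3 3.66-fold and Nog 7.50-fold higher, but Grem1 only 1.77-fold. Skil, a nuclear repressor of Smad signalling that is induced by it, was the lower one, 3.99-fold (adjusted p = 5.72e-05). Of 13 receptors 4 were higher and 2 lower. Bmpr1b, counted as lower, was above background in both ES arrays but in only 1 of 30 clones. It entered the test only through the ES arrays, which fixed its direction. With dim clones at their bound it was at least 1.99-fold lower, under the 2-fold minimum, so no change is read from it. Of 8 Smads and partners 1 was higher and 1 lower. Of 10 targets tested 5 were higher and 2 lower, with Hhex, a transcription factor, among the lower ones. Dlx3, among the higher ones, was above background in 15 of 30 clones and 0 of 2 ES arrays. It entered the test only through clones. Furin, a convertase that cleaves Nodal and BMP precursors, was 6.25-fold higher (adjusted p = 1.34e-09), and Pcsk6 did not pass.

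**Figure D2:**
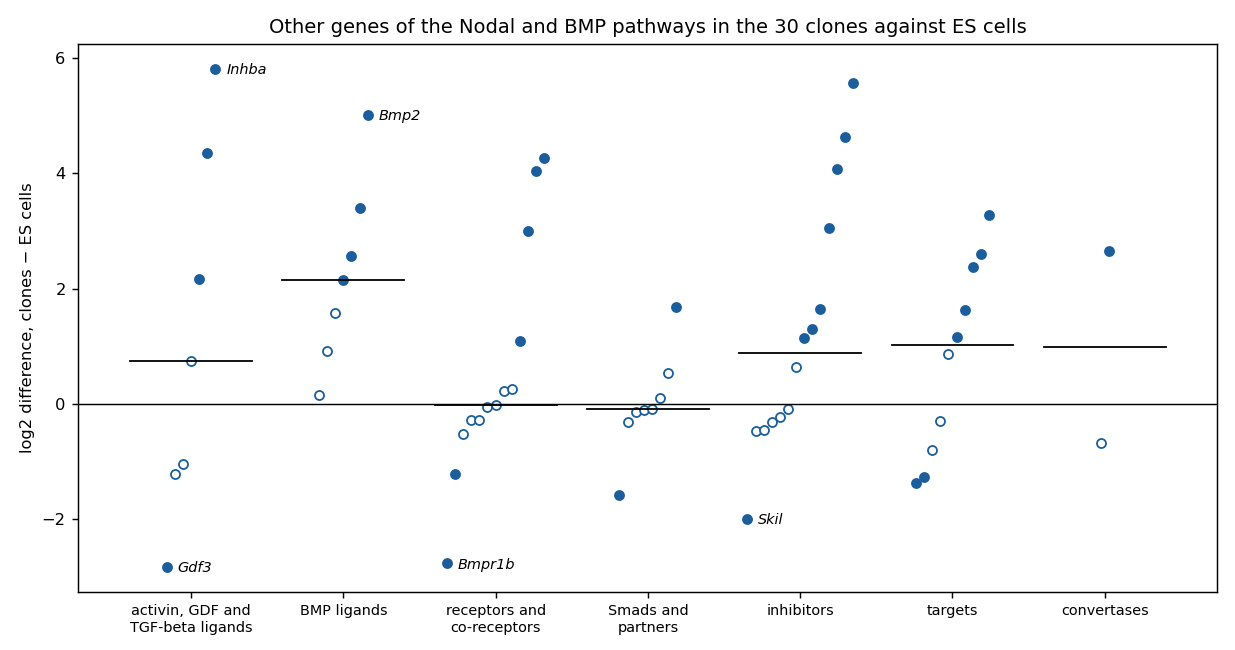
Difference between the mean of the 30 clones and the mean of the 2 ES arrays (log2, y axis) for 61 further genes of the pathways, grouped by role on the x axis. Each point is a gene, filled where it changed, black lines are medians, and Inhba, Bmp2, Gdf3, Bmpr1b and Skil are labelled. Bmpr1b was above background in only 1 of 30 clones. The median is highest for the BMP ligands and near 0 for the Smads and partners, of which 1 was higher and 1 lower.

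In the comparison of 3F- with 4F-OP-iPS clones, which differ in whether c-Myc was among the factors, 3 of the 9 genes changed, Nodal, Id2 and Id3, and all 3 were higher in 3F-clones. No slide held both groups, and all 3 calls were lost with the slide as a random block, with these 2 groups alone and without the 4 clones low in Nanog. The background is 4.51% of all probes changed and 3.94% changed to higher. The median difference was 1.36 for the 9 genes against 0.02 for all probes.

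Id3 was at 1.15, 0.34, 0.14, 2.20 and 2.05 in 4F-OP-iPS #1 to #5. It was at 2.55, 3.50, 3.38, 3.13 and 3.07 in 3F-OP-iPS #1 to #5. Every 3F-clone lay above every 4F-clone, and the difference was 1.95 ± 0.47 (SE; adjusted p = 0.013), or 3.86-fold. For Id2 the levels were 0.04, 1.61, 0.09, 1.11 and 1.31 in the 4F-clones and 2.33, 2.01, 1.97, 2.60 and 2.04 in the 3F-clones. These groups did not overlap either, with a difference of 1.36 ± 0.32 (adjusted p = 0.0128) and 1.43 ± 0.32 (adjusted p = 0.00842) by the spliced probe shown above. The share of all probes without overlap is not given here, and 24.6% of all probes had an unadjusted p under 0.05 by limma. Id1, whose product is of the same kind, was at 3.75, 1.98, 3.29, 1.76 and 3.27 in 4F-clones and 3.22, 2.22, 3.01, 2.16 and 2.41 in 3F-clones, which overlap throughout (difference -0.21 ± 0.34, adjusted p = 0.756).

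Nodal was at -3.77, -2.96, -0.19, 2.00 and 1.40 in 4F-OP-iPS #1 to #5 and at 1.18, 1.38, 1.74, 2.32 and 2.64 in the 3F-clones. The 3 lowest values are those of the clones low in Nanog, and the other two 4F-clones lie within the 3F range. The difference was 2.56 ± 0.80 (adjusted p = 0.0451). Lefty1 differed by 2.01 ± 0.84 (adjusted p = 0.132), Lefty2 by 1.41 ± 1.31 and Smad7 by 0.74 ± 0.33 (adjusted p = 0.159), none of them past the threshold, while the Tdgf1 difference was -0.59 ± 0.79.

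Without the 4 clones low in Nanog, which leaves 2 clones in the 4F-OP group, the differences were 0.15 for Nodal, 0.98 for Id2 and 1.00 for Id3, and 0.210% of all probes changed. The Nodal call was also lost without any of 4F-OP-iPS #1 to #3 or 3F-OP-iPS #2 to #5 (differences from 1.79 to 2.68), and the Id2 call without 4F-OP-iPS #1 (1.16), while Id3 was called without each of the 10. The Nodal call was lost as well with normexp (2.11, adjusted p = 0.0895) and without the filter on dim probes (adjusted p = 0.0614), under both of which Id2 and Id3 were called. Marker genes moved as well. Of 9 ES markers Zfp42 was higher in 3F-OP-iPS, with a list median of 2.41 and sums of 39.8 to 93.6 against 2.31 to 159. Of 19 fibroblast markers Acta2 and Tagln were higher, with a list median of 1.29 and sums of 208.1 to 796.3 against 152.8 to 409.3, and of 8 trophoblast markers Cdx2 and Tcfap2c were. Without the 4 clones no marker of the 3 lists changed, and the medians were -0.94 for ES and 0.70 for fibroblast markers. Their part in the Nodal and Id differences was not tested. Of 61 pathway genes 4 were higher and none lower: Gsc, a Nodal target above background in 3 of the 5 4F-clones, by 2.53 ± 0.77 as fitted and at least 3.33-fold with the dim clones at their bound, Hhex by 2.08 ± 0.43, the ligand Bmp7 by 2.04 ± 0.53, and Tmepai, an inhibitor induced by TGF-β, by 1.26 ± 0.31 (adjusted p from 0.00491 to 0.0423). None of these was changed without the 4 clones.

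In TTF-derived clones Id3 alone of the 9 genes changed between 3F and 4F, in a comparison where 5.77% of all probes changed and 3.97% were higher. Its levels were 1.01, 1.30, 1.98, 1.91 and 2.67 in 4F-TTF-iPS #1 to #5 and 3.74, 3.64, 3.30, 3.74 and 2.18 in 3F-TTF-iPS #1 to #5. The 3F-clones #1 to #4 lay above all 4F-clones, and 3F-TTF-iPS #5 lay within their range (difference 1.54 ± 0.47, adjusted p = 0.0352). Id2 was at 1.48 to 2.10 in 4F- and 2.11 to 2.77 in 3F-clones without overlap, but its 0.75 ± 0.32 did not pass (adjusted p = 0.137), and by the spliced probe the groups overlapped (0.65 ± 0.32, adjusted p = 0.195). Smad7 was likewise separated, from -1.70 to -1.34 in 4F- and from -1.02 to -0.34 in 3F-clones, with a difference of 0.74 ± 0.33 (adjusted p = 0.151). The share of all probes without overlap is not given here, and 26.1% of all probes had an unadjusted p under 0.05 by limma. The Id3 call was lost without the 4 clones (1.35, adjusted p = 0.0629) and with the slide as a fixed or random block, and no slide held both groups. It was also lost without any of 4F-TTF-iPS #1, #2 and #4 or 3F-TTF-iPS #1 to #4 (1.35 to 1.58). None of the 61 pathway genes changed, but Bmp7, Eng and Hhex were higher without the 4 clones, where the share of all probes changed is not given here. Of 9 ES markers none changed, though 8 had a higher mean in 3F-clones, with a list median of 1.05, or 0.38 without the 4 clones. The trophoblast marker Elf5 and the primitive streak marker Evx1 were lower in 3F-clones, and the part of these markers in the Id3 difference was not tested.

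In PαS-derived clones none of the 9 genes changed between 3F and 4F by limma, none had an unadjusted p under 0.05, and none of the 61 pathway genes changed. Of all probes 0.0181% changed and 17.3% had an unadjusted p under 0.05. The means of all 9 genes were lower in 3F-clones, with a median difference of -0.69, as were those of all 9 ES markers, with a median of -1.10. The means of 7 of 8 trophoblast markers (median 1.30) and 15 of 19 fibroblast markers (median 0.46) were higher in 3F-clones. No marker of these 3 lists changed, and their part was not tested. Id3 was at 2.78, 0.98, 2.94, 2.72 and 1.44 in 4F-PαS-iPS #1 to #5 and at 2.80, 3.43, 1.14, 1.61 and 1.49 in 3F-PαS-iPS #1 to #5, with a difference of -0.08 ± 0.47. The groups overlap over most of their range. The estimates for the Nodal side were below 0 but wide, at -1.14 ± 0.80 for Nodal, -1.57 ± 0.84 for Lefty1 and -1.68 ± 1.31 for Lefty2.

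The difference of these 3F-4F differences was tested itself. Between PαS and OP it was changed for Id2, at -1.89 ± 0.46 (adjusted p = 0.0484) and -1.94 ± 0.45 by the other probe (adjusted p = 0.0421), where 0.648% of all probes changed. The Id2 levels behind it in PαS clones were 2.70, 1.05, 2.02, 2.80 and 1.51 with 4F and 1.80, 1.99, 1.12, 1.31 and 1.19 with 3F. The estimates for Nodal (-3.70 ± 1.12, adjusted p = 0.0922), Lefty1 (-3.58 ± 1.18, adjusted p = 0.112) and Id3 (-2.03 ± 0.66, adjusted p = 0.109) did not pass. Without the 4 clones low in Nanog the Id2 value was -1.52 (adjusted p = 0.521), and its call was lost without any of 4F-PαS-iPS #1 and #4, 3F-PαS-iPS #2 to #5, 4F-OP-iPS #1 and #3 or 3F-OP-iPS #2 to #5 (-2.02 to -1.69). It was lost as well with the slide as a fixed or random block, with normexp and without the filter on dim probes. No ES or fibroblast marker changed in this comparison, but all 9 ES markers had estimates below 0 (median -3.002), as did 17 of 19 fibroblast markers (median -0.84). These medians were -0.33 and -0.07 without the 4 clones, and the part of these markers was not tested. Between PαS and TTF none of the 9 was changed, as against 0.583% of probes, and between OP and TTF none, as against 0% (limma called no probe, and 1028 had an unadjusted p under 0.05).

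**Figure D3:**
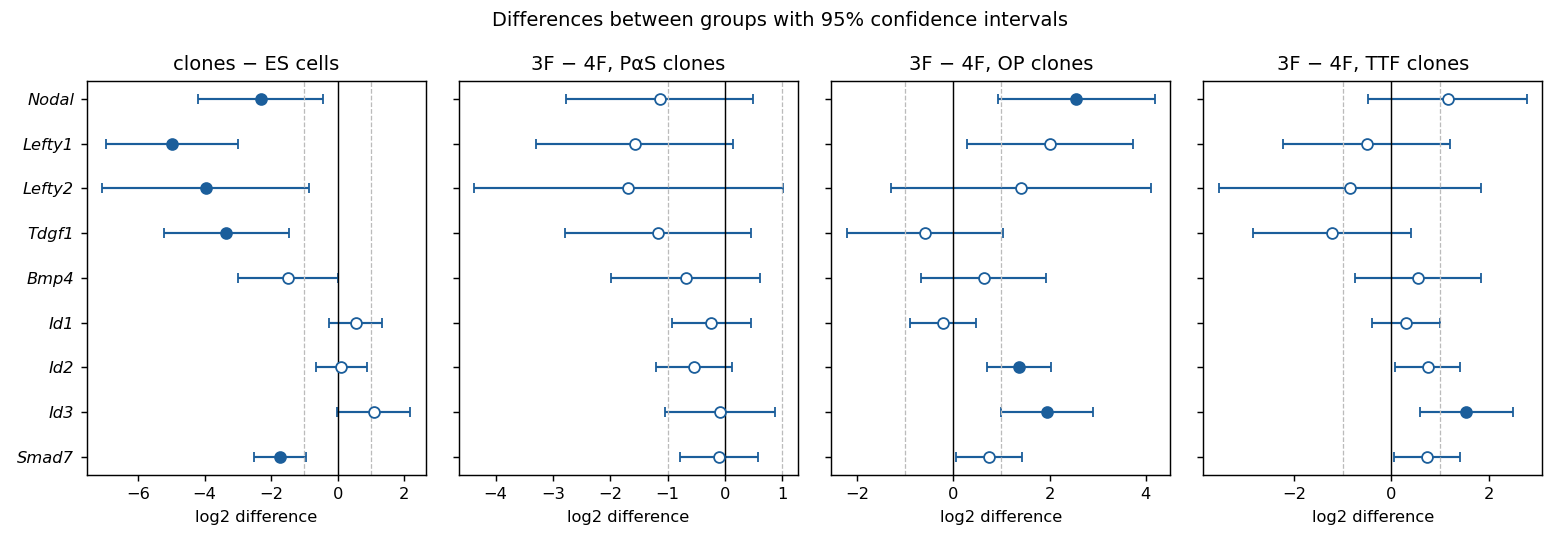
Differences between group means (log2, x axis) of the 9 genes with 95% confidence intervals from limma, for the clones against ES cells and for 3F- against 4F-clones of each source. Filled points changed, and dashed lines mark 2-fold. In OP clones Nodal, Id2 and Id3 are filled to the right of 0, in TTF clones Id3, and in PαS clones none.

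By source, with 3F- and 4F-clones averaged, none of the 9 genes changed between PαS and OP (1.60% of all probes changed), PαS and TTF (0.500%) or OP and TTF (0.0217%). Each comparison had 1 member with an unadjusted p under 0.05, where 21.5%, 16.6% and 10.2% of all probes had one. The nearest was Id1, lower in PαS than in OP clones by -0.74 ± 0.24 (adjusted p = 0.0735), and by -0.83 ± 0.24 at its other probe, which passed the p (adjusted p = 0.0476) but not the 2-fold minimum. Id2 was lower in OP than in TTF clones by -0.67 ± 0.23 (adjusted p = 0.314). Of the 61 pathway genes, Gata2, a transcription factor induced by BMP, was 2.38-fold higher in PαS than in OP clones (adjusted p = 0.0229), and none changed in the other pairs of sources. Of 9 ES markers Zfp42 was higher in PαS clones as well, with a list median of 1.81, and all 8 trophoblast markers had a higher mean there though none changed. Zfp42 did not change without the 4 clones low in Nanog, and the ES list median was -0.05. Gata2 was then not changed, and 4 other pathway genes were higher in PαS clones (Bmp6, Bmp8a, Gdf9 and Msx2), as was Lamb1-1 of 10 primitive endoderm markers, a list with a median of 1.12. The share of all probes changed without the 4 clones is not given here, so that count stands without a background. The part of these markers was not tested.

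Ordered by mean level, no neighbouring groups of clones differed for any of the 9 genes, in 45 steps of at most 1.52. Since the ends of an order are picked by the same means, no p is given for the difference between them. Nodal ran from 4F-PαS (1.89 ± 0.53, SD, n = 5) over 3F-OP (1.85), 3F-TTF (1.16), 3F-PαS (0.75) and 4F-TTF (0.00) to 4F-OP (-0.70 ± 2.57). Its last place turns on the clones low in Nanog: the other 2 clones of 4F-OP had a mean of 1.70, and 4F-TTF was then lowest (0.49). Lefty1 ran from 3F-OP (1.28) over 4F-PαS (0.66), 4F-TTF (-0.46), 4F-OP (-0.73) and 3F-PαS (-0.91) to 3F-TTF (-0.96), and Lefty2 from 4F-PαS (-0.53) over 3F-OP, 3F-PαS, 4F-TTF and 4F-OP to 3F-TTF (-3.66, with 3 of 5 clones above background). Tdgf1 ran from 4F-PαS (1.23) over 4F-TTF, 4F-OP, 3F-PαS and 3F-OP to 3F-TTF (-0.61), with each 4F group above each 3F group, and Bmp4 from 4F-PαS (-0.27) over 3F-TTF, 3F-OP, 3F-PαS and 4F-TTF to 4F-OP (-1.43). Without the clones low in Nanog 4F-OP was the highest group for Lefty2 (-0.10), Tdgf1 (2.11) and Bmp4 (0.27).

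Id2 ran from 3F-TTF (2.55) over 3F-OP (2.19), 4F-PαS (2.02), 4F-TTF (1.80) and 3F-PαS (1.48) to 4F-OP (0.83). Id3 ran from 3F-TTF (3.32) over 3F-OP (3.13), 4F-PαS (2.17), 3F-PαS (2.09) and 4F-TTF (1.77) to 4F-OP (1.18). Without the clones low in Nanog the upper 3 groups kept this order in both genes, and 4F-OP was lowest for Id2 (1.21) but not for Id3 (2.13), where 4F-TTF was lowest (1.97). Id1 had 4F-OP highest (2.81) and 3F-PαS lowest (1.85), with 3F-TTF highest (2.66) without those clones, and Smad7 ran from 3F-OP (-0.51) over 3F-TTF, 4F-PαS, 3F-PαS and 4F-OP to 4F-TTF (-1.53), with the same ends without them.

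From the lowest to the highest of all 30 clones Nodal spanned 84.7-fold and Smad7 6.57-fold, and without the 4 clones low in Nanog 9.60-fold and 4.78-fold. In 4F-PαS-iPS Nodal was at 1.79, 2.06, 1.16, 2.63 and 1.83 and Lefty1 at 1.60, 0.76, 0.17, 2.58 and -1.80 in clones #1 to #5. There clone #4 was highest in both, and clone #5 was lowest in Lefty1 and Lefty2 (-2.97) although its Nodal was at the group median.

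Over all clones Nodal, Lefty1 and Lefty2 rose and fell together, but in TTF clones taken alone Nodal and the Lefty genes did not pass. Of 12 relations between members 7 passed after Benjamini-Hochberg adjustment, and all 7 were positive (two-sided permutation tests with 100000 resamples, over clones with both probes above background). Lefty1 and Lefty2 had r = 0.79 and rho = 0.81 over 26 clones (adjusted p = 4e-05), and r = 0.75 without the 2 clones farthest from the Lefty1 median. Nodal had r = 0.70 and rho = 0.77 with Lefty1 over 30 clones (adjusted p = 6e-05), r = 0.71 without 4F-OP-iPS #1 and #2, the clones farthest from its median, and 0.62 within slides (adjusted p = 0.00084). With Lefty2 it had r = 0.70 and rho = 0.64 over 26 clones, and r = 0.56 without those clones. Many other genes followed Nodal more closely. Among 18422 genes ranked by r with Nodal over all 30 clones, Lefty1 ranked 788 and Lefty2 881. Bmp4, of the BMP side, ranked 517 (r = 0.75), and this pair was not among the 12 and was not tested.

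By source, again by permutation, Nodal and Lefty1 had r = 0.83 in the 10 PαS clones (adjusted p = 0.0113), 0.92 in the 10 OP clones (adjusted p = 0.00096) and 0.33 in the 10 TTF clones (adjusted p = 0.525). Nodal and Lefty2 had r = 0.83 in 10 PαS clones (adjusted p = 0.0113), 0.83 in 9 OP clones (adjusted p = 0.0209) and -0.13 in 7 TTF clones (adjusted p = 0.901), by permutation. Nodal with its co-receptor Tdgf1 was looser, at r = 0.46 and rho = 0.48 (adjusted p = 0.0185; 0.51 without the 2 farthest clones), but 0.69 when each clone group was centred on its mean. Centred within slides it was 0.55 and did not pass (adjusted p = 0.0547). Nodal with Smad7 had r = 0.53 and rho = 0.63 (adjusted p = 0.00542) and 0.67 without the 2 farthest clones, but r was 0.36 (adjusted p = 0.225) when groups were centred, and was 0.43 within slides (adjusted p = 0.0405).

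On the BMP side Id2 and Id3 were closest, with r = 0.74 and rho = 0.71 (adjusted p = 4e-05) over 30 clones and 0.68 without the 2 farthest. It was 0.51 within groups (adjusted p = 0.0491), 0.59 within slides (adjusted p = 0.0235) and 0.76 without the 4 clones low in Nanog (adjusted p = 0.00024). Bmp4 with Id3 had r = 0.55 and rho = 0.44 (adjusted p = 0.00396) and 0.40 without the 2 farthest clones, and this rests on the 4 clones: without them it was 0.14 (adjusted p = 0.578). Bmp4 had no detectable relation with Id1 (r = -0.15, rho = -0.11, adjusted p = 0.467) or with Id2 (r = 0.27, rho = 0.19, adjusted p = 0.189).

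Id1 shows the opposite dependence. Over 30 clones it had r = 0.06 with Id2 (rho = 0.33, adjusted p = 0.743) and 0.22 with Id3 (rho = 0.30, adjusted p = 0.293). In 4F-OP-iPS #1 and #3, which are low in Nanog, Id1 was at 3.75 and 3.29 while Id2 was at 0.04 and 0.09, the 2 lowest Id2 levels of all clones. Without the 4 clones low in Nanog, r was 0.62 with Id2 (adjusted p = 0.00209) and 0.59 with Id3 (adjusted p = 0.00376). In the 10 PαS clones, none of which was among them, r was 0.92 with Id2 (permutation, adjusted p = 0.00384). Id1 with Smad7 had r = -0.35 (rho = -0.29, adjusted p = 0.0863).

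**Figure D4:**
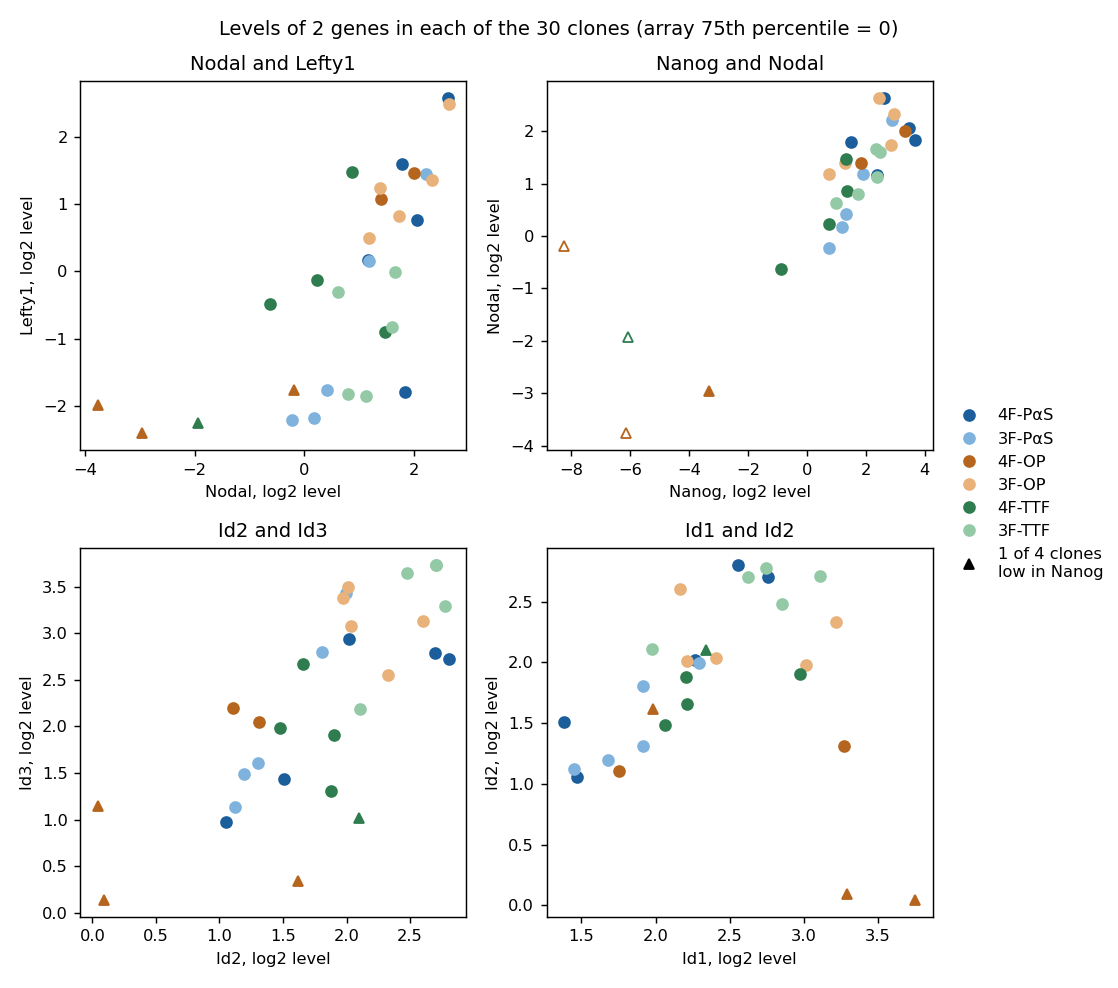
Levels of 2 genes in each of the 30 clones (log2, 75th percentile of the array at 0), coloured by group; triangles are the 4 clones low in Nanog and open symbols have a gene that is not well above background. Nodal goes with Lefty1 and with Nanog and Id2 with Id3, and in the panel of Id1 and Id2 a pair of triangles lies apart from the other clones at the lower right.

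Nodal followed Nanog most closely of the 9 genes. Over the 27 clones with Nanog above background r was 0.90 and rho 0.83 (adjusted p = 9e-05, 1e-05 before adjustment being the smallest that 100000 resamples can give), and r was 0.75 without 4F-OP-iPS #2 and 4F-TTF-iPS #2, the clones farthest from the Nanog median. It was 0.90 within groups, 0.92 within slides and 0.81 without the 4 clones low in Nanog. By source it was 0.96 in 8 OP clones (adjusted p = 0.0162), 0.91 in 9 TTF clones (adjusted p = 0.0148) and 0.79 in 10 PαS clones, where it did not pass (adjusted p = 0.0799), all by permutation. Of the 9 relations with Nanog 6 passed, all positive: Bmp4 had r = 0.74 (rho = 0.58), Tdgf1 0.60 (rho = 0.43), Lefty2 0.58 (rho = 0.58), Lefty1 0.41 (rho = 0.43) and Id3 0.41 (rho = 0.24), with adjusted p from 0.00018 to 0.0438. Without the 2 farthest clones these were 0.51, 0.44, 0.52, 0.28 and -0.01. Lefty1, Tdgf1 and Id3 rest on 4F-OP-iPS #2, the 1 clone low in Nanog among the 27, with r = 0.28, 0.37 and 0.16 without it (adjusted p = 0.256, 0.12 and 0.505). With the 3 clones in which Nanog was dim entered at a bound, r with Tdgf1 was 0.32 and did not pass (adjusted p = 0.0863). Within slides Lefty1, Lefty2 and Id3 did not pass (adjusted p = 0.304, 0.131 and 0.532). Lefty1 also did not pass after quantile normalization (adjusted p = 0.0686), and neither Lefty1 nor Id3 passed after normexp background correction (0.0652 and 0.0673) or with values centred within groups (0.135 and 0.17). In TTF clones alone r was negative for Lefty1 (-0.24), Lefty2 (-0.077) and Tdgf1 (-0.36), and in PαS clones alone for Id3 (-0.015). Id1 (r = -0.08, rho = -0.17), Id2 (r = 0.07, rho = 0.05) and Smad7 (r = 0.36, rho = 0.52) did not pass.

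The genes most like each member were taken from 18422 others by Pearson's r over the 30 clones, as a description. Nodal was nearest to Ndg2 (0.94), Rbpms2 (0.94) and Amph (0.93). Tdgf1 was nearest to Tdh (0.90), an enzyme of threonine breakdown typical of mouse ES cells, Parp1 (0.89) and Pfkp (0.89), and Bmp4 to Utf1 (0.90), a chromatin factor of ES cells, Lck (0.90) and Chn1 (0.90). Lefty1 had Lefty2 as its second nearest (0.83), after 4933405K07Rik (0.86) and before 2810474O19Rik (0.81). Lefty2 was nearest to Sept1 (0.85), Foxd3 (0.85), a transcription factor of pluripotent cells, and Mcf2 (0.84, above background in 12 clones).

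The Id genes did not share their nearest genes. Id1 was nearest to Arhgef12 (0.88), the transcript ENSMUST00000056822 (0.88) and Fbxo10 (0.88). Id2 was nearest to Adcy1 (0.80, above background in 20 clones), BC060632 (0.79) and Sox6 (0.78), and Id3 to Fzd1 (0.92), a Wnt receptor, Stox2 (0.89) and 5330439J01Rik (0.88). Smad7 was nearest to Esco2 (0.84), Mreg (0.84) and Zfp639 (0.81). The median r over all genes lay between -0.06 and 0.05 for each member.

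In the primary cells Lefty2 was undetected, while Lefty1, Bmp4, Smad7 and the Id genes were above background in all 3. Nodal and Tdgf1 lay far below ES cells and below every clone of the same source. There is 1 array of each, so no test was made, and the EB-3 array on the same slide is the reference. Nodal was at -4.66 in PαS, -4.59 in OP and -4.77 in TTF cells, which differ from EB-3 by -8.84, -8.76 and -8.95, and lay below all 10 clones of the same source in each case. The nearest was 4F-OP-iPS #1 (-3.77), which is low in Nanog. Tdgf1 was not above background in PαS and OP cells, at least 2558-fold and 1591-fold below EB-3, and was at -6.51 in TTF cells. Lefty2 was not above background in any of them, which is at least 229-fold below EB-3 for PαS, 142-fold for OP and 157-fold for TTF cells.

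Lefty1 stands apart from its neighbour. It was at 1.17 in PαS, 1.53 in OP and -0.33 in TTF cells, above background in all, and higher than in 7 of 10 PαS, 9 of 10 OP and 6 of 10 TTF clones, though 12.2-fold, 9.47-fold and 34.4-fold below EB-3. With normexp the difference from the mean of both ES arrays shrank for Nodal in OP and TTF cells (-6.02 and -6.13, against -7.73 and -7.91) and for Tdgf1 in TTF cells (-6.95 against -10.11). Bmp4 was at 1.03, 4.52 and -0.14, and thus highest in OP cells, where it was 49.5-fold above the mean of the 10 OP clones (32.2-fold above that of the 7 not low in Nanog) and 6.36-fold above EB-3. Id3 was at 4.66, 5.59 and 2.26, which in PαS and OP cells is 12.9-fold and 24.7-fold above EB-3 and above every clone of the same source.

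Id1 followed Id3 in the bone marrow cells, at 3.93 in PαS and 3.87 in OP, but was at 0.37 in TTF, below all 10 TTF clones. Id2 had another order, at 2.39, 2.99 and 4.11, and was highest in TTF cells, 8.88-fold above EB-3. By the spliced probe it was highest there too (3.87), but the size differed. Against the mean of both ES arrays it was 9.72-fold higher by that probe and 5.32-fold by the main one. Smad7 was at 1.21, 0.02 and -2.15, in PαS cells above all 10 PαS clones and in TTF cells below all 10 TTF clones. Fibroblast markers summed to 1539, 1880 and 929.8 in the primary cells, against at most 796.3 in clones and 240.1 in ES cells. All 20 were above background in each, as on some clone and ES arrays, so that count checks no label. Of 9 ES markers 2 were above background in each of the primary cells, against at least 5 in clones and 9 in ES cells. None of these values tells the primary cells of the 3 sources apart. Blood cell markers summed to 146.7 in the TTF array, with 6 of 7 above background, against 0.655 in PαS and 0.258 in OP cells, and the part of such cells in the TTF levels was not tested.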

How the data were processed

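RNA of 30 iPS clones, 2 ES lines and 3 primary cells was hybridized in 1 colour (Cy3) to Agilent mouse arrays. The deposited scanner files hold the intensity of each spot, from which the authors' Feature Extraction software (versions 9.5.3.1, 10.5.1.1 and 10.7.3.1) subtracted the background without scaling between arrays. The deposited log2 table, which the authors centred on the median of each probe, served as an alternative. Control spots and 54 to 152 outlier spots per array were left out and spots of a probe averaged, which left 41174 gene probes. The log2 intensity was then shifted to put the 75th percentile of every array at 0. A probe was tested if well above background throughout at least 1 of 7 groups (6 of clones, ES), in 1 fit of 32 arrays with limma 3.58.1 (R 4.3.3), after checks on simulated data. The brightest probe by mean stood for a gene. Other values were computed in Python 3.11.15 with scipy 1.17.1, pandas 2.3.3 and numpy 2.4.6.

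The members and the lists were chosen with earlier results of these data known. All 9 genes are named, of the pathway lists the 3 largest changes per direction and comparison, and the 3 genes most alike; other list genes were named after their values were seen, and some list genes are not reported here. Alternatives were quantile normalization, normexp (offset 50), the authors' table, a floor, other filters and probes, blocks for slide or clone number, and each array left out. Leaving out the 4 clones low in Nanog, and RF8 alone for the pathway genes that changed against ES cells, were chosen after the data were seen. The number of arrays limits the precision.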

Additional observations from a re-analysis of the deposited data

Results flagged for a closer look

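In 3F-TTF-iPS clones the Id3 level of clone #5 (2.184) lay apart from the other 4 (3.296 to 3.737), the gap being 0.716 of the range of the group, above the limit of 0.71 for 5 values. This was the only array to do so among 54 groups of 5 clones, of which chance alone gives about 1 in 20. The difference of 3F- from 4F-clones in Id2 was itself different between PαS and OP clones, at -1.89 on the log2 scale by limma's interaction term, a call that was lost under 5 of 12 alternatives and with 12 of 20 clones left out in turn.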

How the results depend on the processing

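The 5 genes lower than in ES cells were lower in all alternatives, and Lefty1 and Smad7 were called in each. Lefty2 was not called with the slide as a random block, and could not be tested where only probes above background on all arrays were kept. The count of 5 was 2 to 6 with an array left out, 2 being without EB-3. For 3F- against 4F-OP-iPS the count of 3 was 0 with the slide as a random block, with these 2 groups alone and without the 4 clones low in Nanog, and 1 to 4 with a clone left out, and it was 2 (Id2 and Id3) with normexp and without the filter on dim probes. For 3F- against 4F-TTF-iPS the count of 1 was 0 with normexp, with the slide as a fixed or random block and without the 4 clones, and 0 to 1 with a clone left out. For the difference between PαS and OP the count of 1 was 0 with normexp, without the filter on dim probes, with the slide as either block and without the 4 clones. It was 0 to 4 with a clone left out, 4 being without 4F-OP-iPS #4 (Id2, Id3, Lefty1 and Nodal) and 2 without 4F-OP-iPS #5 (Id2 and Nodal). Both are 4F-OP clones not low in Nanog, so without either the group held mostly clones low in Nanog. The share of all probes called with an array left out is not given here, so these counts stand without a background. The other 6 comparisons had 0 of the 9 genes under every alternative run. With the clone number as a replicate block the counts were the same, 3, 1, 5 and 1, and the number marks no pairing in the labels: deviations of same-numbered clones correlated over 0.1 in 20 of 75 pairs, against 94 of 300 pairs of other numbers.

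Of the 12 relations between members 7 passed, against 0 in TTF clones alone and 8 without the 4 clones. Of the 9 with Nanog 6 passed, against 3 within slides, 0 in PαS clones alone, 1 in TTF clones alone and 4 without the 4 clones. In TTF clones alone r turned to -0.13 for Nodal and Lefty2, and to -0.24, -0.077 and -0.36 for Nanog with Lefty1, Lefty2 and Tdgf1, and in PαS clones alone to -0.015 for Nanog and Id3, with 7 to 10 clones each. The cause was not tested for any of these.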
